A study of Mus musculus with 6 samples.

Results

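The ubiquitin-conjugating (E2) enzyme genes were taken as every gene of the deposited expression table whose symbol begins with Ube2, which gave 37 of 18169 genes. The libraries came from Hepa 1–6 cells, a mouse hepatoma line, given either the hedgehog ligand Shh or vehicle, with 3 poly(A) RNA libraries per group and no other difference named. Dose and time of Shh for the sequenced cells are not named in the sources used here, and neither the labels nor the methods tie the libraries of a group to separate cultures, so p-values measure a spread that may be technical. The paper does state independent repeats for its quantitative measurements, with body weights, serum tests and qRT-PCR as examples, and does not name sequencing there. A cell line is a single population of transformed cells, and in such bulk RNA fewer cells of a kind and less RNA per cell cannot be told apart. The paper reported reduced ubiquitylation of Hsp90β in Shh-treated cells and attributed it to the deubiquitylase Usp31. The comparison here asks whether RNA of the E2 enzymes differed between the groups.

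Ubiquitin is activated by an E1 enzyme, passed to a cysteine of an E2 enzyme, and then moved onto a protein by an E3 ligase that binds both. The E2 largely sets whether a single ubiquitin or a chain is made, and through which lysine the chain grows. Some E2 enzymes carry NEDD8 or another ubiquitin-like modifier in place of ubiquitin, and variants such as *Ube2v1* lack the cysteine and act as partners of a catalytic E2. In liver cells as in others, these enzymes serve protein degradation, signalling, DNA repair and the cell cycle. The symbol rule also took in *Ube2cbp*, which encodes a protein that binds Ube2c and is classed with E3 ligases.

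The coding bases around the catalytic site show what joins most of these genes. For *Ube2v1* they show only where an alignment placed that site. Complete coding sequences of all 37 genes were found in the GENCODE M21 transcripts (GRCm38), and the site was located by aligning each translated sequence to that of *Ube2d3*. A codon for cysteine stood there in 33 genes, *Ube2u*, *Ube2v1* and *Ube2v2* had another codon, and *Ube2cbp* did not align there. *Ube2v1* aligned at 26.7% identity over 90 residues, and the alignments marked neighbouring rather than matching residues in *Ube2v1* and *Ube2v2*. The codon in capitals for *Ube2v1* is therefore an uncertain placement, though no codon of its window is for cysteine. Shown are 30 bases, written 5′ to 3′ on the coding strand with the site codon in capitals, for 5 genes of high level and for *Ube2d3*, the reference of the alignment. The windows lie in coding exons at chr7:4810470-4810499 (minus strand) for *Ube2s*, chr2:164771959-164771988 (plus) for *Ube2c*, chr7:13036217-13036246 (minus) for *Ube2m*, chr10:95541415-95541444 (plus) for *Ube2n* and chr3:135460011-135460040 (plus) for *Ube2d3*. That of *Ube2v1* crosses a splice junction.
Ube2s: ggccccaatggcgagatcTGTgtcaatgtg
Ube2c: gacacccagggcaacatcTGCctggacatc
Ube2m: gacctcgagggcaacgtcTGCctcaacatc
Ube2v1: agcagttcgaatggagtgGTGgatccgaga
Ube2n: gacaagttgggaagaataTGTttagatatt
Ube2d3: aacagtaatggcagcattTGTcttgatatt

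The libraries held 20253781 to 20335463 counts each, with TMM factors of 0.988 to 1.025, the highest in Shh library 2. The hepatocyte genes *Alb* (484 to 506 FPKM), *Trf*, *Afp* and *Hnf4a* were clearly detected, while 3 of 14 hepatocyte markers (*Ttr*, *Serpina1a* and *Ahsg*) stayed under 1 FPKM. The markers *Apoa1*, *Apoa2*, *Apob* and *Serpina1b* were also low, at 1.28 to 4.94 FPKM. FPKM is a level scaled by transcript length and by the mapped reads of the library. Summed hepatocyte markers were 1184 to 1203 FPKM with vehicle and 1153 to 1205 with Shh. Leukocyte markers summed to 14.3 to 15.5 and 11.8 to 19.4 FPKM (5 of the 7 measured under 1; *Clec4f* was not analysed here), and all 6 endothelial markers were under 1. Stellate markers summed to 499 to 525 FPKM with vehicle and 503 to 551 with Shh, nearly all from *Dcn*, and cholangiocyte markers to 476 to 498 and 471 to 504, mostly from *Spp1* and *Krt7*. Their part in the results was not tested. No measured marker was at 0 counts in every library. The Shh target genes *Gli1*, a transcription factor (log2 fold change 0.036, 95% interval -0.36 to 0.43), and *Ptch1*, the Shh receptor (0.030, -0.11 to 0.17), did not pass the test.

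Of the 37 Ube2 genes, 32 passed the expression filter, and their levels spanned 101-fold. The E2 genes of the anaphase-promoting complex stood at the top. *Ube2s*, which lengthens chains on mitotic substrates, had 498, 495 and 471 FPKM in the vehicle libraries and 483, 442 and 462 in the Shh libraries. *Ube2c*, which starts those chains, had 433, 425 and 435 with vehicle and 440, 416 and 415 with Shh. Both groups overlapped for each gene. *Ube2m*, the NEDD8 E2 for most cullins, averaged 228.5 FPKM (range 217 to 240), and *Ube2v1* averaged 182.6 (172 to 191). The 5 genes of highest level carried 55.7% to 57.4% of all Ube2 FPKM in a library, and the sum over the 37 genes was 2564 to 2656 FPKM, or 0.473% to 0.48% of all counts.

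*Ube2s*, *Ube2c*, *Ube2m* and *Ube2v1* followed each other in all 6 libraries with no overlap between neighbours. Of 36 neighbouring pairs in the order, 18 had ranges that overlapped. *Ube2n* (131.2 FPKM), *Ube2d3* (107.1) and *Ube2d2a* (92.5) stood lower in the order. At the other end of the tested genes were *Ube2e2* (8.2), *Ube2v2* (6.65) and *Ube2cbp* (4.71).

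**Figure D1:**
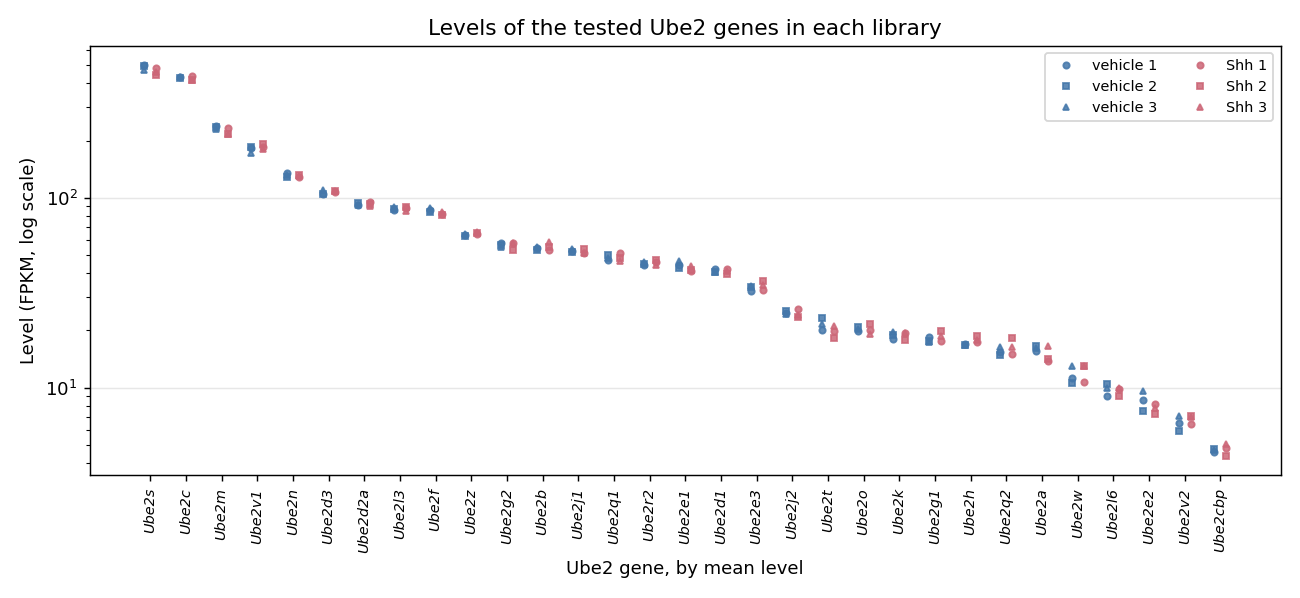
Level of each of 31 tested Ube2 genes (FPKM, log axis), 1 point per library, vehicle in blue and Shh in red, ordered by mean level. *Ube2s* and *Ube2c* lay at 414.8 to 497.7 FPKM over the 6 libraries, and *Ube2cbp* lay at 4.37 to 5.03.

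The other 5 genes were filtered out for low counts. *Ube2dnl1* and *Ube2u* each had 3 to 11 counts in a library, *Ube2dnl2* had 0 to 3.36, and *Ube2d2b* and *Ube2ql1* had 0 to 1. They are accounted for here and enter no test.

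No Ube2 gene differed between Shh and vehicle at an adjusted p under 0.05 in edgeR's quasi-likelihood test with Benjamini-Hochberg adjustment over all 12286 tested genes, against 0% of all genes. That of *Ube2m* was 0.479 and that of *Ube2s* 0.48 from edgeR. At an unadjusted p under 0.05, 1 Ube2 gene was lower with Shh (3.12% of 32, against 5.56% of all genes) and 0 were higher (against 4.83%). DESeq2 gave 2 Ube2 genes at that unadjusted p, *Ube2s* among them, and 0 adjusted. All genes together numbered 1277 at the unadjusted p in edgeR and 814 in DESeq2.

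Measured changes of the Ube2 genes were small. Log2 fold changes of the 32 genes ran from -0.17 (*Ube2e2*) to 0.071 (*Ube2h*), a span that 14.6% of all tested genes exceeded in absolute size. For 23 of 32 genes the whole 95% interval lay within 0.2 either way on the log2 scale, that is within 1.15-fold, and for the other 9 it reached beyond. These intervals cover the spread between libraries under TMM scaling, and the value of *Ube2c* with an offset for transcript length (0.046) lies outside its own interval of -0.14 to 0.041. The widest bounds over the 32 genes were -0.38 and 0.23. The median coefficient of variation between libraries of a group was 4.01% for Ube2 genes and 5.73% for all tested genes. In these comparisons, all tested genes were not matched to the Ube2 genes for expression level.

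**Figure D2:**
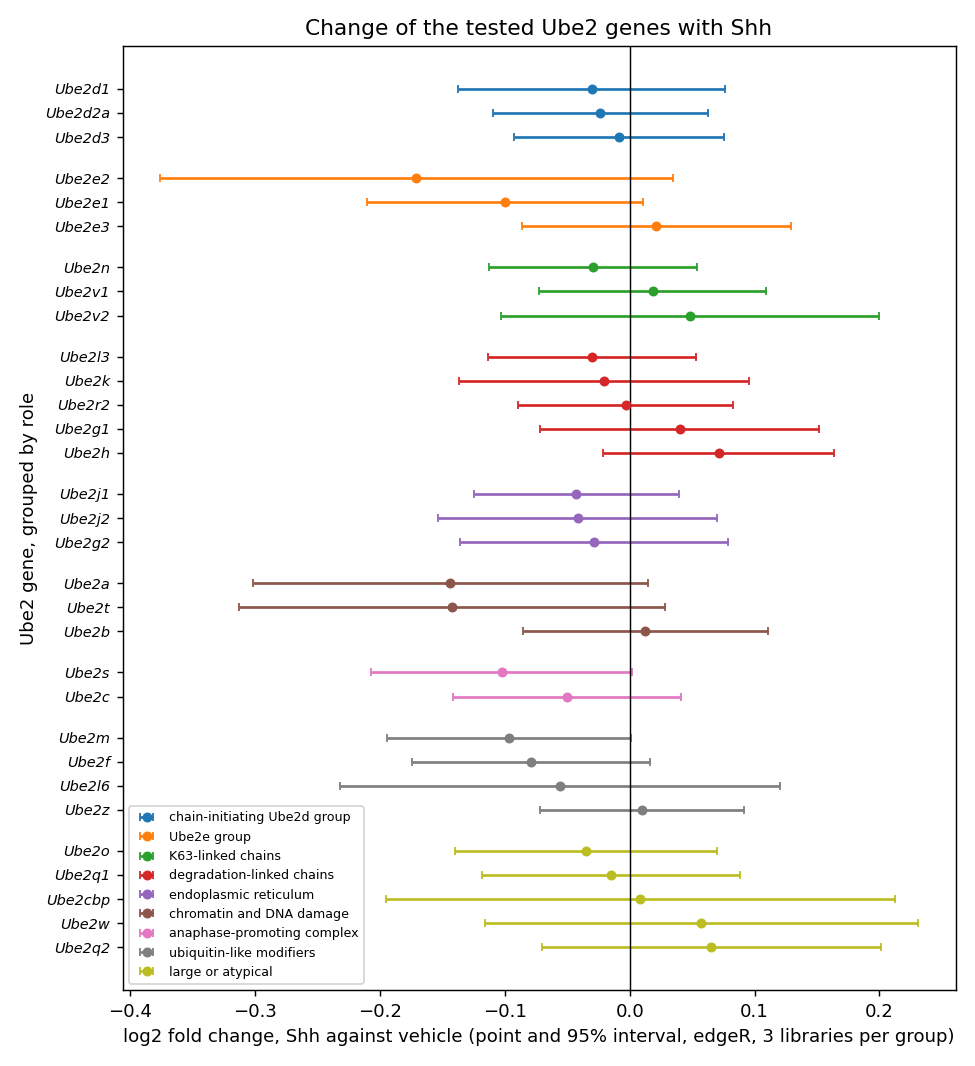
Log2 fold change of 31 tested Ube2 genes with Shh (point, with 95% interval from edgeR, 3 libraries per group), colored by role. Every interval shown crosses 0, and the points run from -0.17 to 0.071.

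Among the E2 enzymes of ubiquitin-like modifiers, *Ube2f*, the NEDD8 E2 that serves the cullin Cul5, had 117, 116 and 119 CPM (counts scaled to a common library size with TMM factors) with vehicle and 114, 106 and 114 with Shh. Every Shh library lay below every vehicle library. Its log2 fold change was -0.079 (standard error, SE, 0.044; 95% interval -0.17 to 0.016; adjusted p = 0.524 from edgeR). Over the 13 alternatives its adjusted p was 0.266 to 0.951 from edgeR and DESeq2. *Ube2m* had 273, 270 and 260 CPM with vehicle and 265, 240 and 246 with Shh. Its groups overlapped, and the log2 fold change was -0.097 (SE 0.045, adjusted p = 0.479 from edgeR).

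*Ube2z*, the E2 of the FAT10 pathway, had a log2 fold change of 0.0096, and *Ube2l6*, the ISG15 E2, one of -0.056.

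The anaphase-promoting complex pair were both below 0. *Ube2s* had 473, 469 and 445 CPM with vehicle and 456, 405 and 432 with Shh, with overlap between groups, and its log2 fold change was -0.1 (SE 0.048, adjusted p = 0.48 from edgeR). *Ube2c* had a log2 fold change of -0.05 (SE 0.042), which turned to 0.046 with an offset for transcript length. The ratio of *Ube2s* to *Ube2c* FPKM was 1.13 ± 0.043 with vehicle and 1.09 ± 0.026 with Shh. In the list of 20 mitotic genes, 10 were above 0 and 10 below, with a median of 0.012. None passed the adjusted threshold, and *Ttk* (0.20) and *Top2a* (0.13) were higher at an unadjusted p under 0.05, 2 of 20 against 4.83% of all genes. *Top2a* was at 0.067 with the length offset and at 0.069 without Shh library 2.

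Of the E2 enzymes of chromatin and DNA repair, *Ube2a* and *Ube2b* encode the closely related partners of Rad18 and Rnf20. *Ube2a* had 26.5, 28 and 27.5 CPM with vehicle and 23.5, 23.1 and 27.7 with Shh, so Shh libraries 1 and 2 were low and library 3 was not. Its log2 fold change was -0.14 (SE 0.073, adjusted p = 0.499 from edgeR). *Ube2b* was level at 0.012. *Ube2b* supplied 77.1% ± 0.77 of the FPKM of the pair with vehicle and 79% ± 0.98 with Shh (SD, n = 3). *Ube2t*, the E2 of the Fanconi anaemia pathway, had a log2 fold change of -0.14 (SE 0.079).

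The Ube2d genes, whose products work with many E3 ligases, had values close to 0. Translated from GENCODE M21, the Ube2d3 protein was 96.6% identical to Ube2d2a and 88.4% to Ube2d1 over the aligned residues. *Ube2d3* made up 44.2% ± 0.97 of Ube2d FPKM with vehicle and 44.6% ± 0.75 with Shh, *Ube2d2a* 38.4% and 38.3%, and *Ube2d1* 17.1% and 16.9%. Their log2 fold changes lay between -0.031 and -0.0088. The summed level was 240.5 ± 2.7 FPKM with vehicle and 241.7 ± 2.26 with Shh.

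The Ube2e genes, relatives of Ube2d with longer amino-terminal ends, differed more among themselves. *Ube2e1* had 59.6, 57.4 and 62.5 CPM with vehicle and 55, 54.2 and 58.4 with Shh, overlapping, with a log2 fold change of -0.1 (SE 0.051, adjusted p = 0.501 from edgeR). *Ube2e2* was at -0.17 (SE 0.094, interval -0.38 to 0.034) and *Ube2e3* at 0.021. The share of *Ube2e3* was 38.8% ± 1.4 with vehicle and 41% ± 1.51 with Shh. In the transcript annotation 47.7% of the 50-base words of *Ube2e1* also occur in *Nkiras1*, so its count is uncertain. The same holds in part for *Ube2l3* (28.6% with *Ydjc*), *Ube2c* (14.1% with *Tnnc2*) and *Ube2d3* (8.49% with *Spopl*). Words are also shared with gene models that are not in the table. Among these genes are *Ube2q2* (18.9% with *Gm4895*), *Ube2d2a* (15.2% with *Gm9762*) and *Ube2n* (10.7% with *Ube2n-ps1*).

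**Figure D3:**
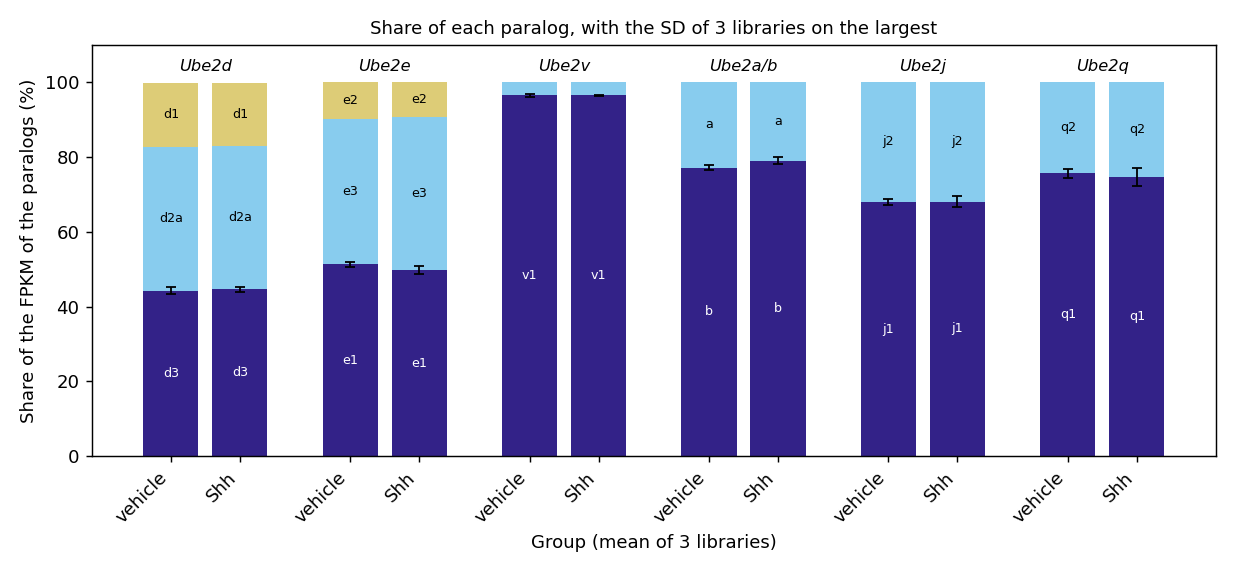
Share of FPKM held by each gene within 6 sets of related Ube2 genes, mean of 3 libraries per group, with SD on the largest share. The largest shift shown was for *Ube2e3*, from 38.8% with vehicle to 41% with Shh, and *Ube2v1* held 96.5% of its pair in both groups.

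K63-linked chains, used in signalling and repair, need *Ube2n* with *Ube2v1* or *Ube2v2*. *Ube2v1* was 27.9 ± 3.49 times the level of *Ube2v2* with vehicle and 27.3 ± 1.48 times with Shh. *Ube2n* was 0.736 ± 0.037 of *Ube2v1* with vehicle and 0.703 ± 0.016 with Shh. Log2 fold changes were -0.03 for *Ube2n*, 0.018 for *Ube2v1* (SE 0.042) and 0.048 for *Ube2v2* (SE 0.07). Of the 50-base words of *Ube2v1*, 72.1% occur also in the gene model *Gm20431*, which is not in the table.

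Among E2 enzymes linked to degradation, *Ube2h*, the partner of the GID/CTLH ligase, was the gene with every Shh library above every vehicle library. It had 79.2, 78.1 and 78 CPM with vehicle and 80.6, 84.5 and 82 with Shh, a log2 fold change of 0.071 (SE 0.043, adjusted p = 0.553 from edgeR). With an offset for transcript length, that value was 0.02. Of its 50-base words, 45.6% occur also in *Gm26526*, which is not in the table. *Ube2g1*, which builds K48-linked chains, was at 0.04 (SE 0.051), *Ube2l3*, which serves HECT and RBR ligases, at -0.03, *Ube2k* at -0.021, and *Ube2r2*, a partner of cullin ligases, at -0.0032.

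Over the whole set, 1 of 32 genes (*Ube2h*, 3.12%) had all Shh libraries above all vehicle libraries, against 6.79% of all tested genes. All Shh libraries lay below in 3 genes, 9.38% (*Ube2f* and *Ube2j1* among them), against 8.69%. These shares are near the background. *Ube2j1*, an E2 of endoplasmic reticulum degradation, had 186, 184 and 190 CPM with vehicle and 181, 184 and 179 with Shh, a log2 fold change of -0.043 (SE 0.038). Its FPKM overlapped (51.9 to 53.7 against 51.2 to 53.5). Those of *Ube2z* did not (62.6 to 64.6 against 64.7 to 65.9), though its CPM overlapped. The shares above are for CPM, and the share of all genes without overlap in FPKM was not counted. *Ube2j2* and *Ube2g2*, the other E2 genes of endoplasmic reticulum degradation, were at -0.042 and -0.029.

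The large and atypical members were mixed. *Ube2q2* was at 0.065 (SE 0.063), *Ube2w*, which ubiquitylates amino termini, at 0.057 (0.08), *Ube2o*, a combined E2 and E3, at -0.035, *Ube2q1* at -0.015 and *Ube2cbp* at 0.0085.

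In all, 22 of 32 genes were below 0 (68.8%, against 48.8% of all tested genes), with a median log2 fold change of -0.029 against 0.0028. Relative to the vehicle mean, the median Ube2 gene was at -0.0082 in Shh library 1, -0.052 in library 2 and -0.023 in library 3, and at -0.0049 to 0.011 in the vehicle libraries. The median moved on leaving out Shh library 1 or 2, to -0.0033 without Shh library 2 and -0.049 without Shh library 1. The count below 0 was 21 of 33 tested without Shh library 2 and 23 of 32 without Shh library 1.

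**Figure D4:**
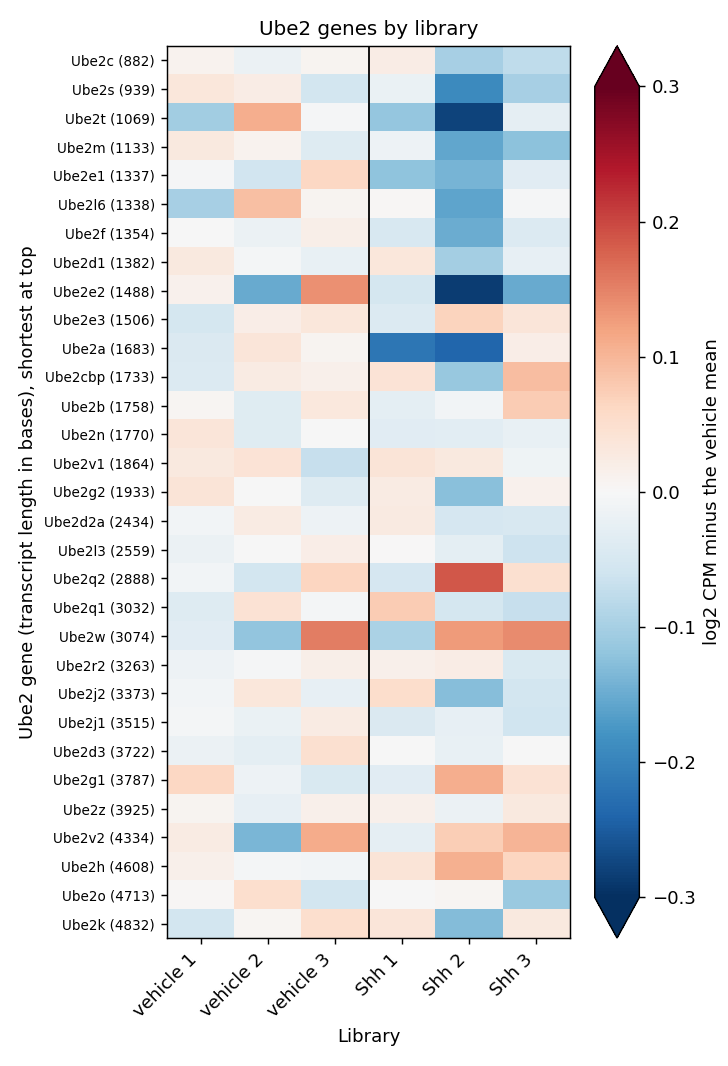
Log2 CPM of each of 31 tested Ube2 genes minus the vehicle mean, by library, with the shortest transcript at the top. Shh library 2 is bluest among the short genes at the top, and reaches -0.28 for *Ube2e2*.

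Transcript length moved with the fold changes. The Spearman correlation of log2 fold change with length was 0.603 over the 32 Ube2 genes and 0.535 over 11471 genes with a length, a description across genes of the same 6 libraries. The 16 Ube2 genes shorter than 2000 bases had a median of -0.053 (12 below 0) and the 16 longer ones -0.012 (10 below 0), beside -0.067 and 0.03 for all genes of those lengths. With an offset for length fitted in each library, the correlation over the Ube2 genes was -0.212, the median -0.019 and 19 were below 0. The values of *Ube2s*, *Ube2m* and *Ube2f* went to -0.011, -0.019 and -0.018, *Ube2e1* to -0.036, and *Ube2a* went from -0.14 to -0.1. Some genes longer than 2000 bases moved further below 0 instead. Among them, *Ube2o* went from -0.035 to -0.088, *Ube2k* from -0.021 to -0.074, *Ube2j1* from -0.043 to -0.07 and *Ube2d3* from -0.0088 to -0.041.

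**Figure D5:**
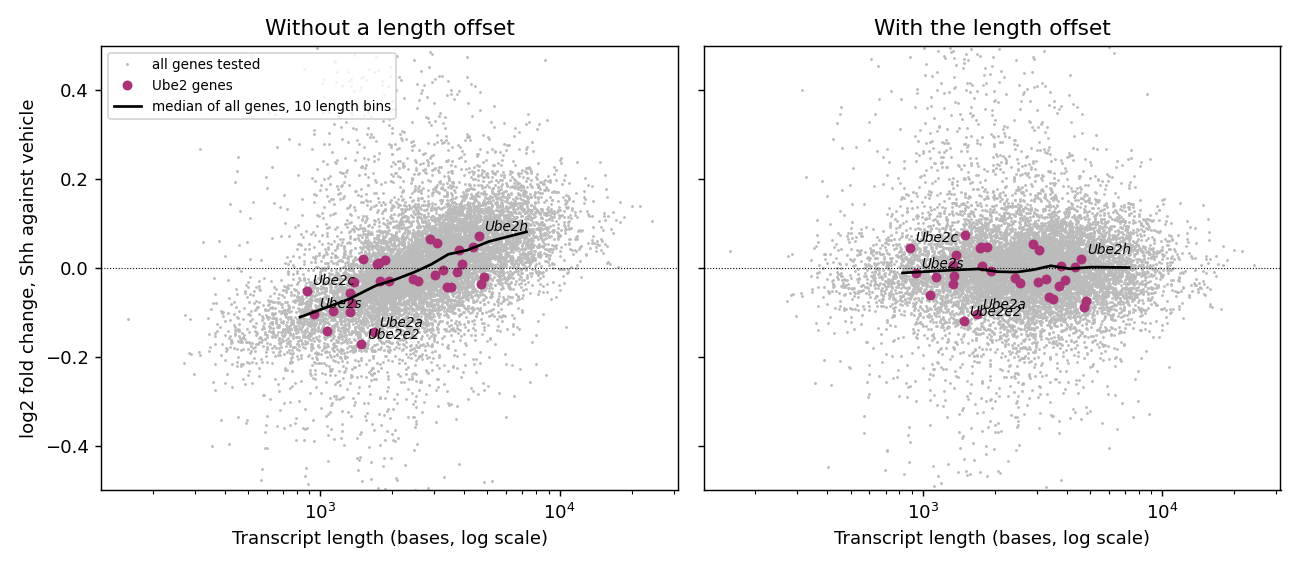
Log2 fold change against transcript length (log axis), without and with the length offset. Grey points are all tested genes with a length, and the line is their median in 10 length bins. In the left panel the line runs from below 0 on the left to above 0 on the right, 12 of the 16 Ube2 genes shorter than 2000 bases lie below 0, and the longer of the 31 plotted lie on both sides of 0. In the right panel the line is near 0. Of the grey genes, 140 and 135 lie outside the axis.

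Around the E2 enzymes, none of the 10 E1 genes passed at an unadjusted p under 0.05 (4 above and 6 below 0, median -0.0039). *Nae1*, of the NEDD8 E1, was at 0.10 and *Uba6* at 0.094. Of 18 genes for ubiquitin and its relatives, 2 were lower at that p, among them *Fau* (-0.17), whose product is fused to a ribosomal protein, against 5.56% of all genes. *Fau* was at -0.045 with the length offset and -0.072 without Shh library 2. That list had 15 below 0 and a median of -0.084 at a median length of 1119 bases. Among 8 tested genes with an E2 fold but no Ube2 name, *Ufc1*, the UFM1 E2 (-0.13), and *Cdc34*, a cullin partner (-0.10), were lower at an unadjusted p under 0.05 and *Birc6*, a large E2 and apoptosis inhibitor, higher (0.18), 2 and 1 of 8 against 5.56% and 4.83% of all genes. With the length offset these values were -0.034, -0.024 and 0.08, and *Birc6* was at 0.088 without Shh library 2.

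Of 27 E3 genes tested, 6 were higher and 2 lower at an unadjusted p under 0.05 (4.83% and 5.56% of all genes), with a median of 0.032. The 2 lower genes were *Stub1*, a chaperone-linked ligase (log2 fold change -0.16, SE 0.04, adjusted p = 0.469 from edgeR), and *Rbx1*, the RING subunit of cullin ligases (-0.23, 0.059). With the length offset they were at -0.09 and -0.19. The 8 tested interferon-induced genes had none at that p, with *Usp18* at -0.11 and *Oasl2* at 0.19. No gene of these lists passed the adjusted threshold.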

How the data were processed

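Poly(A) RNA of Hepa 1–6 cells (3 vehicle and 3 Shh libraries) was sequenced in single 50-base reads. The authors deposited estimated counts per gene, rounded here for the tests, and FPKM, a value the authors divided by transcript length and library total. Columns named control were taken as vehicle. Bowtie2 is in the submitters' processing notes. For counter, build and annotation, names were not given in the sources used here. Series-level design text speaks of liver exosomes, the labels of the cell line, which was followed. Group means and 6 further per-sample columns were not used.

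Counts were tested with edgeR 4.0.16 (TMM, filterByExpr with a count of 10 and a total of 15, quasi-likelihood F test, Benjamini-Hochberg over 12286 genes, threshold 0.05). The fit was also run on simulated counts. These had independent libraries and no trend with transcript length, so that run does not cover such a trend. Transcript length came from counts and FPKM of at least 0.5. Its offset was a trend per library (5 degrees of freedom). DESeq2 1.42.0, upper-quartile factors, other filters (none, or 5 CPM in 3 libraries), a replicate block, the length offset, both, and leaving out each library were tried instead. Sequences were aligned with Biopython 1.88 (BLOSUM62), and 50-base words were compared with GENCODE M21 transcripts on both strands.

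Statistics are given for the 5 members of smallest p in each direction, members whose groups do not overlap, the 5 of highest level and up to 2 genes per list. Other members are named by role, and *Cdc34* was named after its value was seen. Some genes that this takes are counted but not named or plotted. Members and lists were chosen with earlier results of these data known.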

Additional observations from a re-analysis of the deposited data

How the results depend on the processing

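No Ube2 gene passed the adjusted threshold under any of the 13 alternatives. Over all genes the count of 0 became 1 without a filter, 1 with the length offset, 5 with that offset plus the replicate block, and 0 to 195 on leaving out 1 library (195 without Shh replicate 1, 2 when vehicle replicate 3 was dropped, 3 when Shh replicate 2 was, and 1 when Shh replicate 3 was). The count of 1277 genes at an unadjusted p under 0.05 became 814 with DESeq2, 682 with the length offset, 825 with the offset and block, and 609 to 2610 on leaving out 1 library. The count of 1 Ube2 gene lower at that p became 2 with DESeq2 (with *Ube2s*), 3 without a filter (with *Ube2s* and *Ube2m*) and 0 with the 5 CPM filter. It was 2 with the length offset (with *Ube2j1*) and 3 with offset and block (with *Ube2o* and *Ube2j1*). On leaving out 1 library it was 0 to 5, with 5 without Shh replicate 1 (with *Ube2m*, *Ube2s*, *Ube2e2* and *Ube2c*) and 0 without Shh replicate 2. Without Shh replicate 3 it was 3 (*Ube2a*, *Ube2t* and *Ube2e1*), and without vehicle replicate 3 it was 2 (*Ube2s* and *Ube2m*). Leaving out vehicle replicate 1 gave *Ube2t* alone, and leaving out vehicle replicate 2 gave *Ube2e2* alone. The gene of the main fit was thus not called without Shh replicate 2 or 3 or without any 1 vehicle replicate. Deviations of same-numbered libraries had correlations of -0.0296, -0.0694 and 0.123 for numbers 1, 2 and 3, and only number 3 best matched its own number. With 3 libraries per group, these values cannot tell whether same-numbered libraries shared a batch. The replicate block gave 2 (*Ube2m*, *Ube2s*) and called 0 genes in all. The pathway lists went from 0 to 4 adjusted calls without Shh replicate 1, among them *Stub1* (-0.188), *Rbx1* (-0.279) and *Top2a* (0.198). The median of -0.029 lay between -0.0493 and -0.00325 on leaving out 1 library. Of 182 values of the 14 Ube2 genes taken by the naming rule, 6 reversed. *Ube2c* was at 0.0459 with the length offset and 0.0457 with block and offset. On leaving out 1 library, *Ube2q2* ranged from -0.000773 (Shh replicate 2 out) to 0.12, *Ube2w* from -0.00183 and *Ube2v2* from -0.018 (vehicle replicate 2 out) to 0.141 and 0.107, and *Ube2v1* from -0.0145 (vehicle replicate 3 out) to 0.0377. *Ptch1* was at -0.0483 with the length offset and -0.0461 with block and offset, and ranged from -0.0328 to 0.0725 on leaving out 1 library, as *Gli1* did from -0.0599 to 0.104. The cause was not tested.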
